A study of Homo sapiens with 3 samples.

Results

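The genes of 10 receptor tyrosine kinases that are altered or targeted in lung cancer were chosen by name: EGFR, ERBB2, ERBB3, ERBB4, MET, ALK, ROS1, RET, FGFR1 and IGF1R. They are 10 of the 20037 protein-coding genes in the RefSeq table of the assembly (GRCh38.p14). All 10 were found in it. Every called summit within 100 kb of a gene's span was taken from 2 CUT&RUN libraries, 1 for the transcription factor SP1 and 1 for H3K27ac, the acetylated lysine on histone H3 that marks active promoters and enhancers. CUT&RUN brings a nuclease to the antibody's target inside nuclei and sequences the DNA fragments it cuts free. The cells were H1299, an established human non-small cell lung cancer line that the labels describe as lung adenocarcinoma, which lacks p53 and carries a mutant NRAS, with no treatment named. The library with control IgG was not analysed here. Each antibody was used on a single library without replicates, so no test of a difference was possible, and every count below describes these libraries.

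Receptor tyrosine kinases span the cell membrane. Binding of a ligand brings receptors together, their kinase domains phosphorylate each other, and adaptor proteins docked on the phosphorylated tails pass the signal to the RAS and PI3K pathways. In lung adenocarcinoma these receptors are known as drivers through mutation (EGFR, ERBB2, MET), gene fusion (ALK, ROS1, RET) or raised copy number. SP1 is a zinc finger protein that binds the GC box, a short GC-rich element of many promoters without a TATA box, and the EGFR, MET and IGF1R promoters are textbook examples of GC-rich promoters.

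The SP1 list held 5570 summits and the H3K27ac list 3201. Each summit is a single base with a score on a −log10 scale, from a p-value or a q-value (which of these is not stated). The lowest scores were 3.001 and 3.015, the medians 6.17 and 5.01. Read counts are not part of these lists, so the depth of each library is unknown and a gene without a summit is only a gene without a call. The labelled cell type could be checked only weakly. Of 10 genes of lung epithelium and adenocarcinoma, 1 (NAPSA, a protease of alveolar cells, SP1 score 6.69) carried SP1 at an end and 0 carried H3K27ac there, against 13.7% and 0.848% of all protein-coding genes, so these counts do not speak for or against the label. Of 5 mesenchymal, 4 blood and 4 fibroblast genes, 0 had either library called at an end. Within 100 kb, SP1 was called near 4 of the 10 lung genes and near 2, 1 and 1 of these others, against 52.6% of all protein-coding genes. H3K27ac was called near 2 of the 10 lung genes and near 1 gene of each other list, against 24.0%. These counts do not speak for or against the label either.

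The promoters are shown first because SP1 and the GC box are compared at them. RefSeq start sites at the outer end of the gene were given for 8 of the 10 genes. The table used here gave none for ERBB3 and FGFR1. The 250 bases before the start (RefSeq, GRCh38.p14) are printed 5′ to 3′ on the strand of the gene for the promoter that held an SP1 summit, ERBB2, and for the 5 promoters with 2 or more GC boxes. In ERBB2 the capitals mark the summit base with 5 bases on each side. In the others they mark each GC box, GGGCGG or its reverse complement CCGCCC.
ERBB2, chr17:39687844-39688093, plus strand: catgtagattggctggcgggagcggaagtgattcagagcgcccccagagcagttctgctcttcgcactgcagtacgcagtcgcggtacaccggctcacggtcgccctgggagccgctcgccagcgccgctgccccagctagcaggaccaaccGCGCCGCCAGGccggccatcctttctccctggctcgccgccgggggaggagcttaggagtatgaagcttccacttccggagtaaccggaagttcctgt
EGFR, chr7:55018767-55019016, plus strand: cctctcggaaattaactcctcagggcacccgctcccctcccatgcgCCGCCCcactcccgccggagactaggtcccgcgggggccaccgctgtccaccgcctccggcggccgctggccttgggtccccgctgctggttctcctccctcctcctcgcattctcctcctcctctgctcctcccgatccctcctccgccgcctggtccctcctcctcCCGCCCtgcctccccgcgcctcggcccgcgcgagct
MET, chr7:116671946-116672195, plus strand: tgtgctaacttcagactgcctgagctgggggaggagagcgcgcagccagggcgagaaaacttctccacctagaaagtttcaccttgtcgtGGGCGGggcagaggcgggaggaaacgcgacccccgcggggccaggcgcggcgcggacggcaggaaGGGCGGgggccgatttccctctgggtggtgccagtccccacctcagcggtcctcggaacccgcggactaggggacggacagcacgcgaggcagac
IGF1R, chr15:98648289-98648538, plus strand: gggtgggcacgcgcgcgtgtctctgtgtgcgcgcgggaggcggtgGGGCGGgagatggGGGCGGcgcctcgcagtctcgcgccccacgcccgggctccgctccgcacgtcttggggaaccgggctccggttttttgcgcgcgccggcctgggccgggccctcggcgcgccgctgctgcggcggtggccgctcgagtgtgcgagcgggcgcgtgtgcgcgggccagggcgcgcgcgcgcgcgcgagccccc
RET, chr10:43076819-43077068, plus strand: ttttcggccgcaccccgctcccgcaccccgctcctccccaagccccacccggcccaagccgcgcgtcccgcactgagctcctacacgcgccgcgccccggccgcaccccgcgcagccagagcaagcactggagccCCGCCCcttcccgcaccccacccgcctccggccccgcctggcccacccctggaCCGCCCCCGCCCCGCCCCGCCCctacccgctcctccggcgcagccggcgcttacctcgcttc
ALK, chr2:29921587-29921836, minus strand: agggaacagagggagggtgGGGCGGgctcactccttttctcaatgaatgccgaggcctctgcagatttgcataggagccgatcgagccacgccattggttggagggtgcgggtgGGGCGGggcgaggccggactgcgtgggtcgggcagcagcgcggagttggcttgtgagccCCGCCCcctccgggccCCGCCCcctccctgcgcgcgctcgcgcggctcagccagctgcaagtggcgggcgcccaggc

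SP1 was called at the outermost RefSeq start of ERBB2 and at the low-coordinate end of ERBB3, and at no end of the other 8 genes. That is 2 of 10 genes with an SP1 summit within 1000 bases of an end, or 20.0% (95% Wilson interval 5.67 to 51.0, counting error only), against 13.7% of all protein-coding genes. The share is near the background. No gene of the 10 had an H3K27ac summit at an end, where 0.848% of protein-coding genes had one. Few H3K27ac summits were at gene ends at all, 150 of 3201, against 2457 of 5570 for SP1. A gene end without an H3K27ac call was thus the common case in this list. With 10 genes, the Wilson interval for 0 reaches 27.8%.

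In the wider windows SP1 was called near fewer of the 10 genes than the background share, and H3K27ac near a share close to it. An SP1 summit lay within 100 kb of 3 of the 10 spans (ERBB2, ERBB3 and RET; 95% Wilson interval 10.8% to 60.3%), against 52.6% of all protein-coding genes. An H3K27ac summit lay within 100 kb of 3 of 10 (ERBB3, ALK and FGFR1, with the same interval), against 24.0%. The interval holds both background shares. ERBB3 alone had summits of both libraries, as 14.7% of protein-coding genes did. EGFR, ERBB4, MET, ROS1 and IGF1R had neither, 5 of 10, against 38.1%. In all, 4 SP1 and 4 H3K27ac summits fell in the 10 windows, which together cover 4.84 Mb. This is 0.826 summits per Mb for each library, where the pooled rate over the windows of all protein-coding genes was 4.61 for SP1 and 1.15 for H3K27ac. In that pooled rate a summit counts once for every gene window that holds it, so gene-dense stretches weigh more. Of the 4.84 Mb, the windows of ERBB4 and ALK take 1.36 and 0.929 Mb. The median over the 10 genes was 0 per Mb for SP1, against 2.73 over all protein-coding genes, and 0 for H3K27ac in both.

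**Figure D1:**
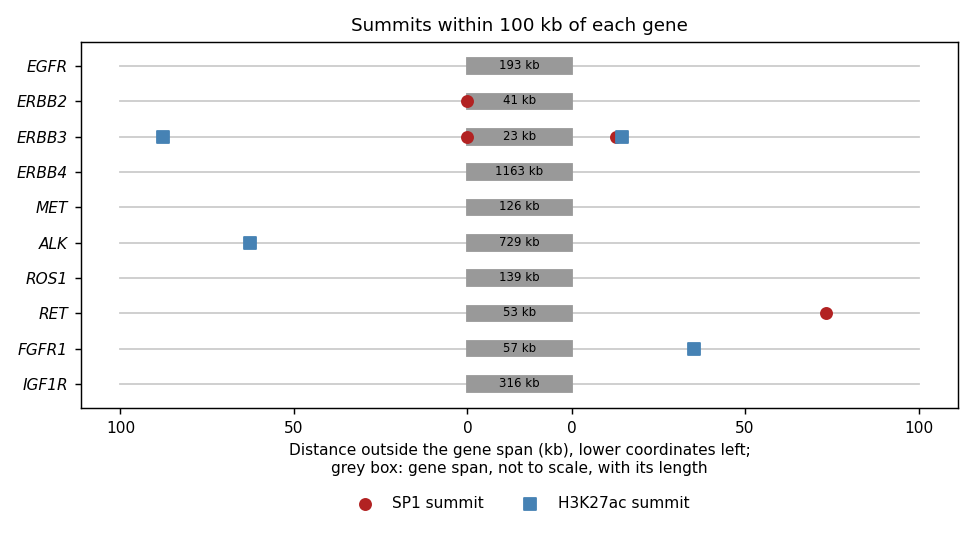
Positions of called summits within 100 kb of the 10 gene spans; the horizontal axis is the distance outside the span in kb, with lower coordinates to the left, circles are SP1 summits, squares are H3K27ac summits, and the grey box stands for the span (not to scale, length printed). The 4 SP1 and 4 H3K27ac summits all lie outside the boxes, at ERBB2, ERBB3 and RET for SP1 and at ERBB3, ALK and FGFR1 for H3K27ac.

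No summit of either library lay inside any of the 10 genes. The spans add up to 2.84 Mb, and their median length of 132 kb is above the 24.1 kb of all protein-coding genes. SP1 summits were inside 12.7% of protein-coding genes and H3K27ac summits inside 5.66%. Among the 3356 protein-coding genes of 100 kb or longer these shares were 22.3% and 20.9%. EGFR, ERBB4, MET, ALK, ROS1 and IGF1R are of that length, 6 of the 10, and ERBB4 and ALK are the longest at 1163 kb and 729 kb.

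The windows also differed in how many genes they held. The window of ERBB3 held an end of 13 other protein-coding genes and that of ERBB2 of 9, while the remaining 8 windows held 0 to 2. ERBB3 had 4 summits of the 2 libraries, but ERBB2 had 1, as many as ALK, RET and FGFR1 with 1 or 2 neighbouring genes. The median was 1.5 over the 10 genes and 4 over all protein-coding genes. The part that gene density has in the counts of summits was not tested.

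The ErbB receptors differed from each other. ERBB2 encodes the member with no known ligand of its own, which pairs with the other ErbB receptors. Its SP1 summit, at position 39688001 of chromosome 17 with a score of 9.66, was higher than or level with 78.3% of the SP1 list. It lay 93 bases before the ERBB2 start at 39688094, at base 158 of the printed sequence. PGAP3, which encodes an enzyme that remodels GPI anchors, starts on the opposite strand 37 bases away, at 39688057, and the summit lay 56 bases inside its span. The call is thus nearer to the PGAP3 start than to that of ERBB2 and cannot be given to either gene from these files. ERBB2 is also known to be transcribed from start sites further inside the gene, where no SP1 summit was called. The printed sequence and its motif counts are those of the outermost start only. No other summit lay within 100 kb of ERBB2 in either list, and the nearest H3K27ac summit was 1108 kb below the gene, inside SRCIN1, with a score of 4.53.

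ERBB3 encodes the neuregulin receptor whose own kinase is weak and which signals through its partners. Its SP1 summit, at 56079948 on chromosome 12, lay 160 bases below the low-coordinate end of the gene at 56080108, with a score of 7.20 that matched or exceeded 61.5% of the list. The next protein-coding gene end was that of PA2G4, 24611 bases away. Of the SP1 summits in the 10 windows, this was the only one with a receptor gene as its nearest protein-coding gene. PA2G4 encodes a protein known to bind ERBB3. A further SP1 summit, the highest of the 4, lay 12955 bases above ERBB3 with a score of 10.5, and it was 173 bases from the low-coordinate end of RPL41, a ribosomal protein gene. An H3K27ac summit with a score of 7.47, higher than or level with 93.3% of its list, lay 1515 bases from there, 8 bases outside the other end of RPL41 and 291 bases from ZC3H10. This was the closest approach of the 2 libraries in any of the 10 windows, so 0 pairs of summits lay within 500 bases of each other. The other H3K27ac summit near ERBB3, with a score of 4.13, lay 87.9 kb below it inside RAB5B, a gene of endosome traffic.

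EGFR, the receptor of epidermal growth factor, spans 55019017 to 55211628 on chromosome 7 and had no summit in its window. The nearest SP1 summit was 381 kb below it, with a score of 6.13. The nearest H3K27ac summit was 1988 kb above it, with a score of 5.36, the farthest of the 10 genes for this mark. That summit lay 829 bases from the pseudogene GUSBP12, and the next nearest was MTCYBP5, a nuclear pseudogene of mitochondrial DNA, at 2223 bases. ERBB4, a neuregulin receptor on chromosome 2, had its nearest SP1 summit 505 kb away inside IKZF2, with a score of 3.82, lower than most of the list. Its nearest H3K27ac summit, with a score of 5.99, was 159 kb above the gene. In all, 2 of the 4 ErbB genes had SP1 at an end, where 13.7% of all protein-coding genes had it. The ErbB genes were not 1 of the planned lists, and they hold the only 2 of the 10 genes with such a call. Their share therefore cannot be read against the background. The call at ERBB2 is nearer to PGAP3. EGFR and ERBB4 had no SP1 call nearer than 381 kb.

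MET, the receptor of hepatocyte growth factor, spans 116672196 to 116798377 on chromosome 7. No summit lay in its window. An H3K27ac summit with a score of 5.58 was 159 kb below MET, between CAV2 and CAV1, which encode caveolins, at 4302 and 12166 bases from them. Its region had rank 836 of 2710. The nearest SP1 summit was 400 kb below MET, 13649 bases from TES, and scored 5.21.

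The fusion kinases ALK, ROS1 and RET had no summit at an end or inside. In lung tumours these genes are joined to a partner gene whose promoter then drives the kinase. ALK, a receptor that is mostly active in the developing nervous system, had 1 H3K27ac summit 62.7 kb below its span, inside CLIP4 and also inside the lncRNA gene LOC124907747, 259 bases from an end of the latter, with a score of 5.23. ALK starts at its other end, 791497 bases from this summit. The summit lay in a region of 332 bases with rank 409 of 2710, within the best 15.1%. The nearest SP1 summit to ALK was 801 kb away and 831 bases from FOSL2, an AP-1 gene, with a score of 4.11. RET, the receptor of the GDNF family, had 1 SP1 summit 73.4 kb above its span, inside RASGEF1A and 9179 bases from its end, with a score of 7.37. The H3K27ac summit nearest to RET was 297 kb below it, 2807 bases from BMS1, in a region of rank 217. ROS1 had SP1 no nearer than 984 kb (score 4.49) and H3K27ac no nearer than 329 kb (score 3.97).

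FGFR1, a receptor of fibroblast growth factors, had 1 H3K27ac summit at 38503962 on chromosome 8, 35.3 kb above the gene, with a score of 4.73. FGFR1 was the protein-coding gene nearest to it, and the lncRNA gene LINC03042 was 6872 bases away. Its region, 609 bases from 38503807 to 38504415, had rank 222 of 2710, within the best 8.19%, the best rank in any of the 10 windows. The score of the summit was only as high as or higher than 43.0% of the list. The nearest SP1 summit was 1728 kb away. IGF1R, the receptor of insulin-like growth factors, was the farthest of the 10 from SP1, at 2331 kb. That summit lay 48 bases from SNRPA1, a splicing gene, with a score of 3.18. Its nearest H3K27ac summit was 402 kb away, with a score of 4.24.

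**Figure D2:**
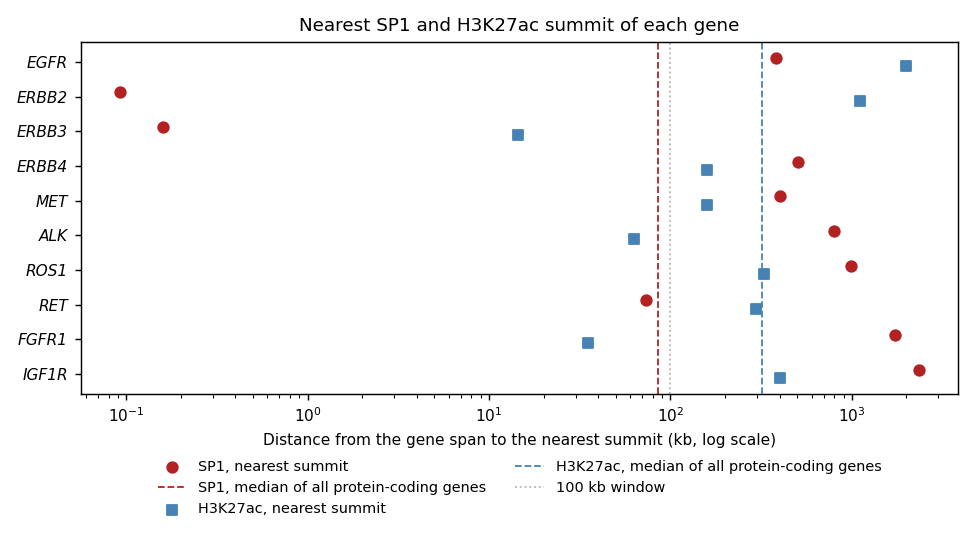
Distance in kb (log scale) from each gene span to the nearest SP1 summit (circles) and H3K27ac summit (squares); dashed lines mark the medians over all protein-coding genes, 85.7 kb for SP1 and 320 kb for H3K27ac, and the dotted line marks 100 kb. For SP1, ERBB2 and ERBB3 stand far to the left at 93 and 160 bases, RET lies at 73.4 kb, and the other 7 genes lie between 381 and 2331 kb.

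The distances put the 10 genes in different orders for the 2 libraries. For SP1, ERBB2 came first, followed by ERBB3, RET, EGFR, MET, ERBB4, ALK, ROS1, FGFR1 and IGF1R. The median distance was 452 kb, against 85.7 kb over all protein-coding genes, and 7 of the 10 genes were farther than that. For H3K27ac, ERBB3 came first at 14.5 kb, followed by FGFR1, ALK, ERBB4, MET, RET, ROS1, IGF1R, ERBB2 and EGFR. The median was 228 kb, against 320 kb, and 4 of 10 were farther. ERBB2 thus came first for SP1 and next to last for H3K27ac, while FGFR1 was next to last for SP1 and near the front for H3K27ac. ERBB4 and MET, at 158734 and 159353 bases from H3K27ac, were nearly level. Only 1 library stands behind each order, so no spread between cultures is known.

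**Figure D3:**
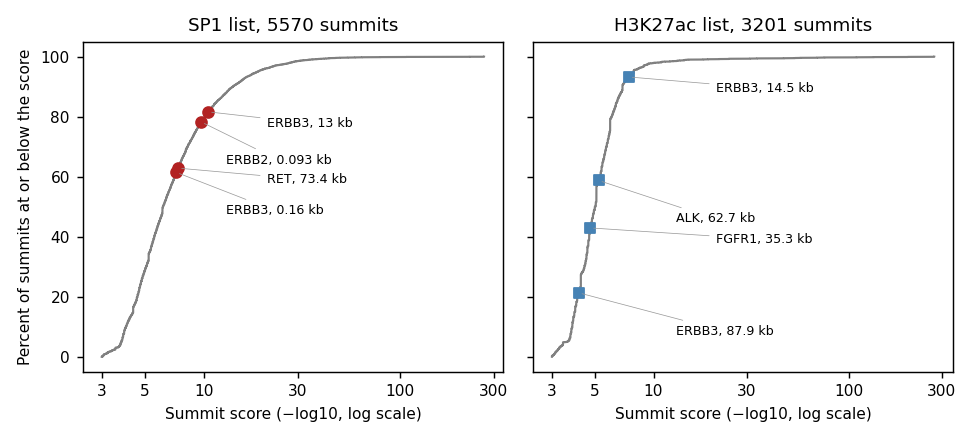
Scores of the summits in the 10 windows (coloured points, labelled with the gene and the distance from its nearer end) on the cumulative curve of the whole SP1 list (left) and H3K27ac list (right); the horizontal axis is the score on a log scale, the vertical axis the percent of summits at or below it. The SP1 points lie between 61.5% and 81.6%, above the middle of their list, and the H3K27ac points range from 21.3% to 93.3%.

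The deposited lists of ranked regions, in which peaks were joined and ranked, added ranks for 3 of the 8 summits. An H3K27ac region lay within 100 kb of 3 genes (ERBB3, ALK and FGFR1), against 19.4% of protein-coding genes, and an SP1 region within 100 kb of 0, against 22.5%. The region beside ERBB3 was 219 bases long in RAB5B and had rank 1523. Region lists held few summits at gene ends. They contained 2.73% of the SP1 summits at gene ends but 76.7% of all other SP1 summits, and 22.7% and 91.5% of the corresponding H3K27ac summits. The summits at ERBB2, ERBB3 and RPL41 are at gene ends and have no rank. The SP1 summit above RET, 9179 bases from the nearest protein-coding gene end, was in no region either.

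Of the 8 promoters, 6 held GGGCGG or CCGCCC in the 250 bases before the start, against 53.7% of 22199 protein-coding promoters. With 8 promoters, a difference from that share was not tested. The single promoter among them with an SP1 summit in these bases held no GC box. ERBB3, which also had SP1 at an end, could not be compared because no promoter was given for it. RET had 5 GC boxes, 4 of them in a run from 62 to 41 bases before the start. ALK had 4, and EGFR, MET and IGF1R had 2 each. ERBB4 had 1 and ROS1 had 0. None of these 7 promoters had an SP1 summit nearer than 127 kb (RET). ERBB2, the only promoter of the 8 with an SP1 summit in the 250 bases (2.84% of protein-coding promoters had one), held no GC box in either orientation. The nearest found was in the PGAP3 promoter, at 39688167 to 39688172, 166 bases from the summit and 73 bases after the ERBB2 start. The RPL41 promoter, which holds the higher SP1 summit of the ERBB3 window at 173 bases before its start, did have 1 GC box, 87 to 82 bases before the start. A match of these letters is a description of the sequence and not a binding site, and their lack says only that they are not in this window.

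**Figure D4:**
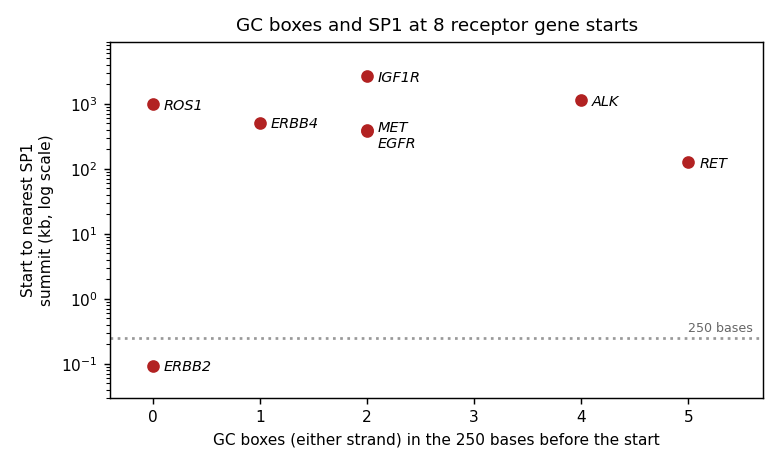
GC boxes on either strand in the 250 bases before the start (horizontal axis) against the distance from the start to the nearest SP1 summit in kb (vertical axis, log scale) for the 8 genes with a RefSeq start; the dotted line marks 250 bases. ERBB2, with 0 GC boxes, is the only point under the line, and RET and ALK, with 5 and 4, lie at 127 and 1126 kb.

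Over all protein-coding promoters, a GC box was far more common than an SP1 call. Of the 7078 promoters with 2 or more GC boxes, 261 had an SP1 summit in the 250 bases (3.69%, 95% Wilson interval 3.27 to 4.15). Of the 10269 with none, 167 had a summit (1.63%, 1.40 to 1.89). Counted by these 250 bases, EGFR, MET, IGF1R, RET and ALK belong to the large majority of GC-box-rich promoters without a summit. ERBB2 belongs to the 167 with a summit and no GC box. A summit just past a start is not counted in this way. The ERBB2 summit lay 56 bases past the PGAP3 start, so the PGAP3 promoter, with 1 GC box, counts as one without a summit. GC boxes were in 73.5% of the 631 promoters with a summit and in 53.2% of those without.

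The other motifs and the base composition also varied among the promoters. The GT box, GGGTGG or CCACCC, a related element, was in the promoters of RET (3), ALK (2), MET (1) and IGF1R (1), against 34.8% of protein-coding promoters. In ALK each GT box overlapped a GC box by 1 base. CCAAT or ATTGG was found in ROS1 (2), ALK (1) and ERBB2 (1), against 32.7%. TATAAA or its reverse complement was in 0 of the 8, against 9.00%. IGF1R was the richest in G and C, at 81.2%, and ROS1 the poorest, at 40.0%. ERBB2 stood at 65.6% with 23 CpG dinucleotides, close to MET (68.4%, 24) and EGFR (73.6%, 25). Of the promoters without a call, EGFR, MET, IGF1R, RET and ALK were above ERBB2 in GC content and in CpG number. ERBB4 (57.2%, 14) and ROS1 (40.0%, 3) were below it in both. The part of base composition in the calls was not tested. Further RefSeq starts inside ALK, EGFR and RET held 0, 0 and 1 GC box and no SP1 summit.

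Genes that act with these receptors were described by the same counts. Of 48 other receptor tyrosine kinase genes, 5 carried SP1 at an end (10.4%, against 13.7% of all protein-coding genes). They were FGFR4, with scores of 9.73 and 5.09 at 72 and 546 bases, MERTK (8.11), EPHA2 (5.91), TYRO3 (5.84) and LMTK3 (3.82). The ephrin receptor gene EPHA8 had the only H3K27ac summit at an end, with a score of 3.92 (2.08% of the list, against 0.848%). That score is below the lower quartile of all H3K27ac summits, 4.24. Of 32 genes of ligands and co-receptors, NRTN, which encodes the RET ligand neurturin, had an SP1 summit at an end (11.2). HBEGF, which encodes an EGFR ligand, had an H3K27ac summit there (3.19, close to the lowest H3K27ac score of 3.015). Each is 1 gene of the 32, against the same 13.7% and 0.848%.

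Adaptors and relays carried SP1 at an end in 7 of 22 genes (31.8%), against 13.7% of all protein-coding genes. SHC1, an adaptor that binds phosphorylated receptors, had 2 summits at an end, with scores of 17.04 and 11.8. The adaptor gene CRK had 13.03, the PI3K regulatory subunit gene PIK3R2 12.8, AKT2, a kinase downstream of PI3K, 11.6, GRB2, the adaptor that brings SOS to the receptor, 5.84 and PIK3R1 5.72. Of 20 negative regulators, 5 had SP1 at an end. They were SOCS5 (16.9), CBLB (10.1), a ubiquitin ligase of activated receptors, SH2B3 (8.49), LRIG2 (7.08) and RNF41 (5.81). RNF41 encodes a ubiquitin ligase known to lower ERBB3 protein, and its summit lay 118 kb above ERBB3, just outside the window. No adaptor, relay or negative regulator had H3K27ac at an end, where 0.848% of all protein-coding genes had it. Of 11 partner genes of lung cancer fusions, 0 had SP1 at an end, against 13.7%. NCOA4, a partner of RET, was the 1 gene of the 11 with H3K27ac there (4.42), against 0.848%.

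**Figure D5:**
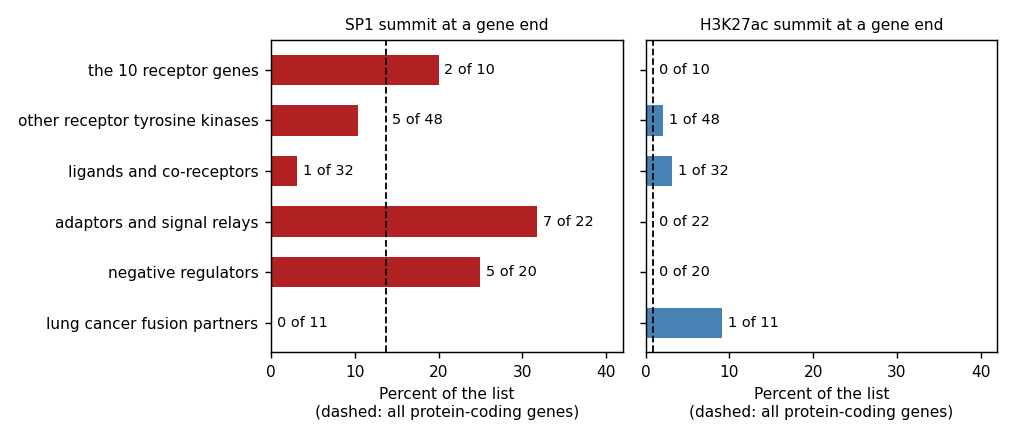
Percent of the genes of each list with a summit within 1000 bases of a gene end, for SP1 (left) and H3K27ac (right), with counts beside the bars; dashed lines mark all protein-coding genes, 13.7% and 0.848%. For SP1, adaptors with 7 of 22 and negative regulators with 5 of 20 lie above the line, and ligands with 1 of 32 below it.

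Within 100 kb, SP1 was called near 22 of the 48 other receptor genes, 11 of 32 ligand and co-receptor genes, 13 of 22 adaptors and relays and 13 of 20 negative regulators, against 52.6% of protein-coding genes. H3K27ac was called near 17, 12, 2 and 5 of them, against 24.0%. The lists differ in gene length and surroundings, and the part of these in the counts was not tested.

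Genes alike in their counts were common. The pattern of a gene was taken as its 4 counts over the 2 libraries (summits at an end and within 100 kb). EGFR, ERBB4, MET, ROS1 and IGF1R, with 0 in each, shared theirs with 7629 other protein-coding genes (38.1%), and RET with 2959. ALK and FGFR1 shared theirs with 1519 others. ERBB2 shared its pattern of 1 SP1 summit at an end and no other with 618 genes, the nearest in window length being CCNT2 and DUSP10. ERBB3, with 1 SP1 summit at an end, 2 SP1 and 2 H3K27ac summits in the window, shared its pattern with 21 genes (0.105%), the nearest in window length being ZNF525 and MED30.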

How the data were processed

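CUT&RUN was run on H1299 cells with antibodies against SP1 and H3K27ac, 1 library each. The genome build is hg38, and cutadapt 2.5 and deepTools 3.4.1 are named without their role, per the submitters' processing notes. The sources used here do not give the aligner or the peak caller. In the summit lists the authors deposited, the score is −log10 of a p-value or of a q-value. In their deposited region lists it is a rank score, with 1 as best. Depth is unknown.

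Summits were compared with gene spans of the RefSeq table (GRCh38.p14) in Python 3.11.15 with pandas 2.3.3 and scipy 1.17.1. The spans carry no strand, so both ends of a gene were used, with a limit of 1000 bases. Motifs were counted in the 250 bases before RefSeq starts. The counting was checked on simulated summits planted at gene ends, of which 100% were recovered. No p-value was computed.

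The 10 genes and the lists were chosen with earlier results of these data known. Named are these genes with every summit in their windows, the protein-coding gene with the nearest end where that end is within 1000 bases of such a summit, up to 6 genes per list with a summit at an end, highest score first, and the 2 genes closest in window length with the same counts. Other neighbouring genes were named after their positions were seen.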

Additional observations from a re-analysis of the deposited data

How the results depend on the processing

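No paired analysis was possible because each antibody had only 1 library. Of 40 alternative values, 29 stayed within 1.5 times the value reported (for shares of all genes, inside the 95% Wilson interval of that value) and 11 moved. Many of the unmoved values were 0 in the main setting and stayed 0. A setting that only removes summits or regions, or narrows a limit, cannot raise a 0. The tally is therefore not a measure of stability. With only summits scoring above the upper quartile, 1 gene (ERBB2) had SP1 at an end and 1 (ERBB3) had H3K27ac within the window. With start sites of the promoter table, chosen after seeing the data, SP1 was at 1 gene, since that table has no ERBB3 entry. When a summit counted only for its nearest protein-coding gene, 1 gene (ERBB3) kept SP1 and 1 (FGFR1) kept H3K27ac. With a window of 250 kb, 5 genes had H3K27ac and the median was 0.301 summits per Mb, while SP1 stayed at 3 genes. The shares of all protein-coding genes under these changed settings are not given here, so these counts cannot be set against a background. With genes of every kind as background, SP1 was at the ends of 6.20% and within 100 kb of 38.5%, and H3K27ac at the ends of 0.632% and within 100 kb of 21.1%. These changes follow from how each alternative is built. Weaker binding, or acetylation under the calling threshold, cannot be seen in called summits.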
